A study of Mus musculus with 8 samples.

Results

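The genes described here are 10 markers of the fetal liver and of liver progenitor cells, Afp, Igf2, Spp1, Gpc3, Dlk1, Prom1, Cd24a, H19, Igf2bp3 and Sox9, measured in AML12 cells with and without irisin. They were chosen by name, and all 12 array probes whose accession belongs to one of them were taken, out of 39429 probes, which cover 21612 named genes. AML12 is an established, non-tumorigenic hepatocyte line derived from the liver of a mouse carrying a transforming growth factor alpha transgene, so every sample came from 1 cell line. Irisin is the peptide cleaved from Fndc5. The irisin group was cultured with 0.5 µg/ml irisin for 24 h and the control group without irisin, both in DMEM F-12 with fetal bovine serum, and each group had 4 samples, each hybridized to its own one-color array. Nothing in the labels says whether the samples of a group came from separate cultures, so the p-values measure only the spread between these samples, which may be technical.

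During liver development, hepatoblasts give rise to both hepatocytes and bile duct cells. They make alpha-fetoprotein (Afp), and they carry the membrane proteins Dlk1, a Notch ligand relative, and Gpc3, a heparan sulfate proteoglycan. The fetal liver also transcribes the neighboring imprinted genes Igf2, a growth factor, and H19, a noncoding RNA, and these genes are silenced in the liver after birth. Sox9, Spp1 (osteopontin), Prom1 and Cd24a mark bile duct and progenitor-like cells, and Igf2bp3 is a fetal RNA-binding protein. Several of them are switched on again in regenerating liver and in hepatocellular carcinoma. In these data the question was which of them the AML12 cells expressed at all, and which differed with irisin. The study tested irisin for its effect on the growth of these cells at higher doses and a later time than here.

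AML12 cells gave signal for 6 of the 10 genes, Afp, Spp1, Dlk1, Cd24a, Sox9 and Igf2bp3, and not for Igf2, H19, Gpc3 and Prom1. For Dlk1 this rests on a single probe, and its other probe gave none. Of the 6, Dlk1 was lower with irisin by 2.49-fold, at a signal close to the background. In the dimmest decile of the tested probes, where Dlk1 lay, 45.1% were called lower by limma, beside 11.7% of all tested probes. With no scaling between arrays the log2 change of Dlk1 was -0.58 and was not called. Igf2bp3 was higher with irisin by 1.23-fold, under the 1.5-fold minimum used here, and its groups did not overlap. The share of all tested probes without overlap was not counted. An adjusted p under 0.05 in limma was reached by 5909 of 24092 tested probes in either direction. Of all tested probes 713, or 2.96%, reached it while being higher, as Igf2bp3 was. Spp1, Afp, Sox9 and Cd24a did not pass the test, and for Spp1 3 irisin arrays were above all control arrays and the fourth below all of them.

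The sequences before the transcription starts of 4 of the detected genes are printed to show what stands in front of the genes whose levels follow. The RefSeq promoter table, on the mouse build GRCm38.p6, matched 7 of the 10 genes with 12 starts in all. Sox9, Cd24a and H19 were not matched. The 250 bases before the start were at chr5:90490464-90490713 on the plus strand for Afp, chr5:104434861-104435110 on the plus strand for Spp1 (the first of its starts), chr12:109452573-109452822 on the plus strand for Dlk1 and chr6:49214955-49215204 on the minus strand for Igf2bp3. They read 5′ to 3′ toward the gene, and capitals mark matches on either strand to any of 5 motifs, a TATA box (TATAAA), an E-box (CACGTG), an AP-1 site (TGANTCA), a RUNX site (AACCACA) and a GC box (GGGCGG).
Afp: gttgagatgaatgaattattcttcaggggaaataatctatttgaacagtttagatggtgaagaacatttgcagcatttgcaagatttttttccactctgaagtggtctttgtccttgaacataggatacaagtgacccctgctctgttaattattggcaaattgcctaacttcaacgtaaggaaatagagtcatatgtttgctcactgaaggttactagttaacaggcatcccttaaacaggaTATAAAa
Spp1: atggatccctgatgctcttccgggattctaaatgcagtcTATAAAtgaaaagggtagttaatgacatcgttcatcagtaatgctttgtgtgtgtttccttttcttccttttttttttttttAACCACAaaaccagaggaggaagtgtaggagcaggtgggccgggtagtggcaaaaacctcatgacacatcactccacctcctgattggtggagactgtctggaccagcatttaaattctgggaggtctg
Dlk1: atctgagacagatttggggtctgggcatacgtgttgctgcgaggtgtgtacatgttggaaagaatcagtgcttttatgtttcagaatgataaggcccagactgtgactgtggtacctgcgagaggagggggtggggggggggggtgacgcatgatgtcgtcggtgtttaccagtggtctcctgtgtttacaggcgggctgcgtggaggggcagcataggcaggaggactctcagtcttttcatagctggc
Igf2bp3: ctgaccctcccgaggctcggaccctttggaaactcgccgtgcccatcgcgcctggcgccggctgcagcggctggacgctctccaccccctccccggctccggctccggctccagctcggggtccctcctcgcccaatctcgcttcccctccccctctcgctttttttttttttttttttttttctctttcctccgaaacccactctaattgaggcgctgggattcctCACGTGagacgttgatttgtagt
The Afp sequence held a TATA box that began 7 bases before the annotated start, and its GC content was 36.0%, against a median of 52.4% over 32851 promoters of the same length. The Spp1 sequence held a RUNX match 129 bases and a TATA box 211 bases before the start. The Igf2bp3 sequence held an E-box 23 bases before the start, and the Dlk1 sequence held none of the 5. Over all promoters, 12.4% had a TATA box, 6.02% the E-box, 6.75% the AP-1 site, 4.40% the RUNX site and 32.7% the GC box. These are matches of letters and no binding was measured.

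The arrays were compared as log2 of the background-subtracted signal over each array's own 75th percentile. The mean percentile was 472 ± 70.1 (SD, n = 4) for control and 783 ± 71.6 for irisin. All control arrays were on 1 slide and all irisin arrays on another, each with its own scan time, so an effect of the slide or of its scan cannot be told apart from the treatment. A probe entered the test when 1 group or both had it well above background, by the scanner software's call, on each of their 4 arrays, which 24092 probes did. Among the hepatocyte markers, 13 of 13 were tested, Alb, Ttr and Hnf4a among them, and none was called changed by limma. On their brightest probes 3 had an adjusted p under the threshold with a smaller change, all lower, Krt18 (-0.47), Apoa2 (-0.42) and Trf (-0.39). Of the 13 changes 4 were above 0. Summed over the 13, the signal relative to the 75th percentile was 482 to 532 in the control samples and 394 to 466 in the irisin samples. Of 8 fibroblast and stellate cell markers 7 had no probe well above background on any array.

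Afp, the main plasma protein of the fetal liver, was measured by a probe with 10 spots on each array. Its level relative to the 75th percentile was -0.035, -0.078, 0.093 and 0.22 on control arrays 1 to 4 and -0.064, 0.090, -0.17 and -0.0013 on irisin arrays 1 to 4. The groups overlapped, and the irisin mean was lower by 0.088 log2 units, with a 95% confidence interval from -0.30 to 0.12. In limma the adjusted p was 0.583, and the exact two-sided permutation test gave p = 0.4. Afp was well above background on all 8 arrays.

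Spp1 encodes osteopontin, a secreted phosphoprotein made by bile duct and progenitor cells that binds integrins and CD44. Its level was 3.48, 3.69, 3.53 and 3.53 in the control samples and 4.25, 3.32, 4.10 and 3.95 in the irisin samples. Irisin arrays 1, 3 and 4 were above all control arrays, and irisin array 2 was below all of them. The mean change was 0.35 (SE 0.17, 95% interval -0.037 to 0.73), with an adjusted p of 0.190 in limma and an exact permutation p of 0.143. Without irisin replicate 2 the change was 0.54 and the adjusted p from limma 0.00259, still under 1.5-fold. With any other single array left out, the adjusted p from limma was 0.205 to 0.402. The SD of Spp1 was 0.41 within the irisin group and 0.090 within the control group.

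Igf2, the fetal growth factor, was not well above background on any of the 8 arrays. Its signal was 1.52, 1.45, 2.33 and 2.77 in the control samples and 2.39, 0.970, 1.90 and 4.27 in the irisin samples. The lowest probe called well above background had a signal of 4.21 to 4.73, depending on the array. On irisin array 4 the 4.27 of Igf2 was above that array's lowest such probe, 4.21, yet Igf2 was not called well above background. No change was computed for it.

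Dlk1 is an imprinted membrane protein of hepatoblasts. The better of its 2 probes had a signal of 12.2, 10.6, 12.6 and 14.4 on control arrays 1 to 4 and 8.02, 9.22, 6.29 and 10.2 on irisin arrays 1 to 4, and was well above background on 4 control and 4 irisin arrays. Relative to the 75th percentile it was at -4.93, -5.51, -5.40 and -5.11 in the control samples and at -6.63, -6.21, -7.00 and -6.39 in the irisin samples. Every irisin array was below every control array, also in the signal itself before scaling. The change was -1.32 (SE 0.18, 95% interval -1.71 to -0.92), the adjusted p in limma was 0.000438, and the exact permutation p was 0.0286, the smallest that 4 against 4 arrays can give. It was the 1 member called lower, and 11.7% of all tested probes were called lower at the same thresholds. Dlk1 lay in the dimmest decile of the tested probes, and there 45.1% of 2410 probes were called lower, so the call is common at this signal. In the decile in which Afp and Igf2bp3 lay, 1.54% were called lower. The other Dlk1 probe was not well above background on any array. Its signals were from 0.920 to 1.54, and the median of the negative control spots was 0.988 to 1.01. The 2 probes thus disagree on whether Dlk1 was expressed, and its change rests on 1 of them. Why they disagree was not tested. The genes whose pattern was most like that of Dlk1 over the 8 arrays were Olfr524 (Pearson r = 0.996), Tgif2lx1 (r = 0.995) and Sec61g (r = 0.994), a likeness that takes in the difference between the groups.

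Cd24a, a small surface glycoprotein of progenitor and bile duct cells, lay at 4.95, 5.06, 5.09 and 4.89 in the control samples and at 4.95, 4.68, 4.72 and 4.83 in the irisin samples. Irisin arrays 2, 3 and 4 were below all control arrays and array 1 was within their range. The change was -0.20 (SE 0.090, 95% interval -0.40 to -0.0012), with an adjusted p of 0.144 in limma and an exact permutation p of 0.0571. Neither of the other membrane markers was detected. The Gpc3 probe had signals from 1.05 to 1.65, and the 2 probes of Prom1, the pentaspan protein CD133, had signals from 0.959 to 3.59 and from 0.861 to 2.02.

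**Figure D1:**
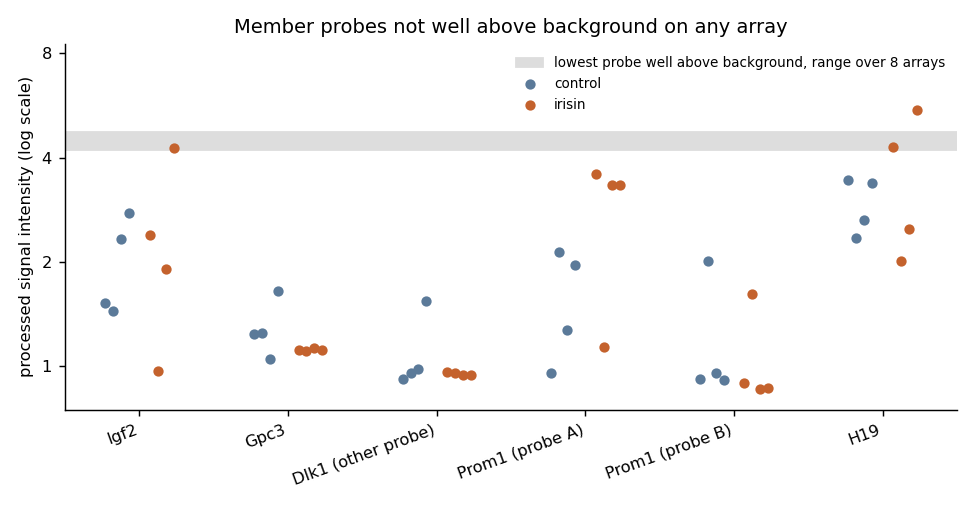
Background-subtracted signal intensity (log scale, no unit) of the 6 member probes not well above background on any array, with control arrays in blue and irisin arrays in orange. The gray band is the range, 4.21 to 4.73 over the 8 arrays, of the lowest probe called well above background, and only Igf2 and H19 reach it, on irisin arrays.

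H19, the noncoding RNA transcribed next to Igf2, was also not well above background on any array. Its signal was 3.45, 2.35, 2.63 and 3.37 in the control samples and 4.29, 2.01, 2.49 and 5.47 in the irisin samples. On irisin array 4 the 5.47 was above that array's lowest probe called well above background, 4.21, yet H19 was not called so. The groups overlapped, and no change was computed.

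Igf2bp3 binds Igf2 and other transcripts and is made in fetal tissue and in many tumors. Its level was -1.06, -1.06, -0.96 and -1.24 in the control samples and -0.76, -0.88, -0.72 and -0.76 in the irisin samples, so each irisin array was above each control array. The change was 0.30 (SE 0.086, 95% interval 0.11 to 0.49), or 1.23-fold, with an adjusted p of 0.0255 in limma and an exact permutation p of 0.0286. At the 1.5-fold minimum 0 of the 6 members were called higher, and 0.714% of all tested probes were. The test the study's methods name also called 0. At an unadjusted p under 0.05 it was 1, Igf2bp3, beside 6.45% of all tested probes in that direction. The adjusted p alone would also call Igf2bp3 higher, as it does 2.96% of all tested probes. Igf2bp3 had an adjusted p above 0.05 in limma when 6 of the 8 arrays were left out singly, up to 0.0793 without control replicate 4.

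Sox9, a transcription factor of bile duct cells and their precursors, was measured by a probe with 10 spots. It lay at 2.29, 2.17, 2.27 and 2.46 in the control samples and at 2.31, 2.55, 1.98 and 2.23 in the irisin samples. Irisin array 2 was the highest of the 8 and irisin array 3 the lowest. The change was -0.029 (SE 0.12, 95% interval -0.30 to 0.24), with an adjusted p of 0.903 in limma and an exact permutation p of 0.886, and its sign turned under 4 of the settings described below, for example to 0.025 under cyclic loess, and without control replicate 4 (0.026) or irisin replicate 3 (0.066).

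**Figure D2:**
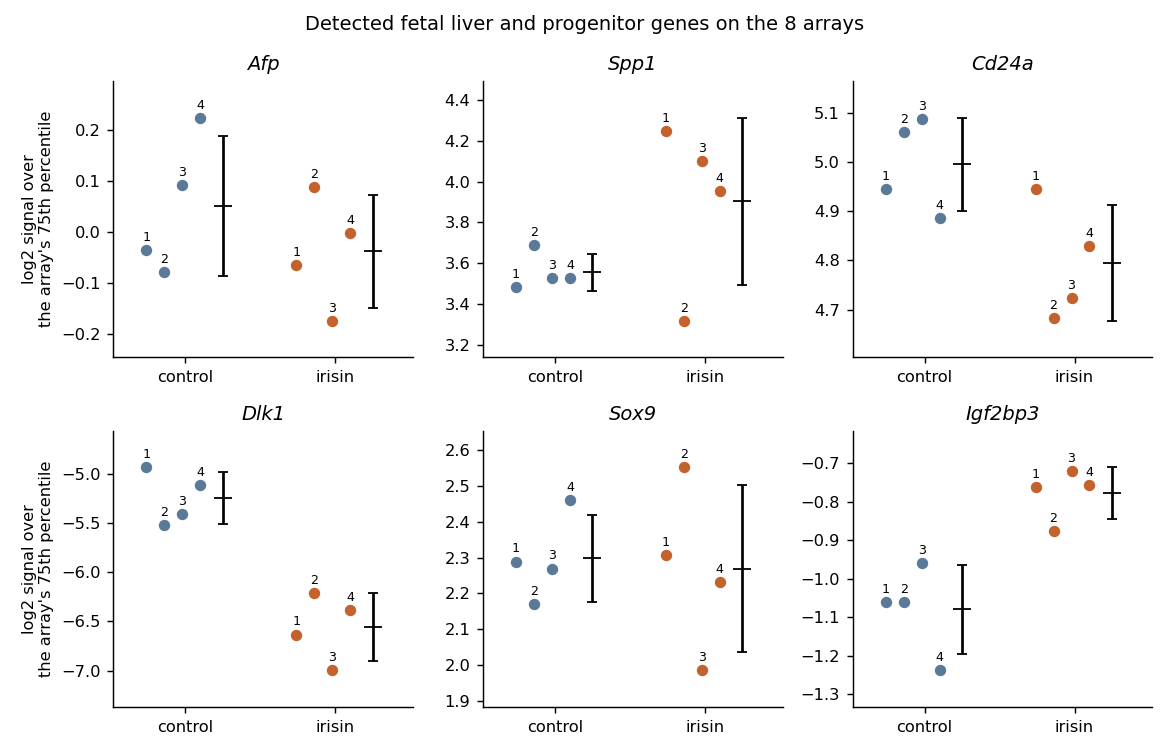
Log2 signal over the array's 75th percentile (vertical axis, a separate range for each gene) of the 6 detected genes on the 4 control arrays (blue) and 4 irisin arrays (orange), with replicate numbers and, in black, the mean and SD of each group. Dlk1 and Igf2bp3 do not overlap between the groups, which was not counted over all tested probes, and irisin array 2 of Spp1 lies apart from the other 3.

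Over the 6 tested member probes the median change was -0.059, beside -0.080 over all tested probes, and 2 of the 6 changes were above 0. The scaling between arrays sets the zero of these changes. Scaled to 8 spike-in probes, the median of all tested probes was 0.50, and with no scaling it was 0.66, so under those settings most genes were higher with irisin. Afp was then at 0.49 and 0.65 and Cd24a at 0.38 and 0.54, the opposite sign from the main scaling. The changes were also taken relative to the median of all tested probes under 9 ways of processing the signal. Spp1 was above that median by 0.42 to 0.70 and Igf2bp3 by 0.28 to 0.38, while Dlk1 was below it, at -1.24 to -0.56. Scaling whole arrays shifts all probes alike, so it leaves these relative values unchanged by construction. For these genes only the background from negative control spots, quantile normalization and cyclic loess could move them much. Afp stayed between -0.12 and 0.063 of it, Cd24a between -0.12 and 0.041 and Sox9 between -0.027 and 0.19. The call for Dlk1 held in 8 of the 9, and was lost with no scaling, where its change was -0.58. With the background set from the negative control spots, the change was -0.73 for Dlk1 and 0.18 for Igf2bp3 (adjusted p = 0.129 in limma). In that setting Spp1 was at 0.52 with an adjusted p of 0.0055 in limma, still under 1.5-fold. Under quantile normalization the change of Dlk1 was -0.86.

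**Figure D3:**
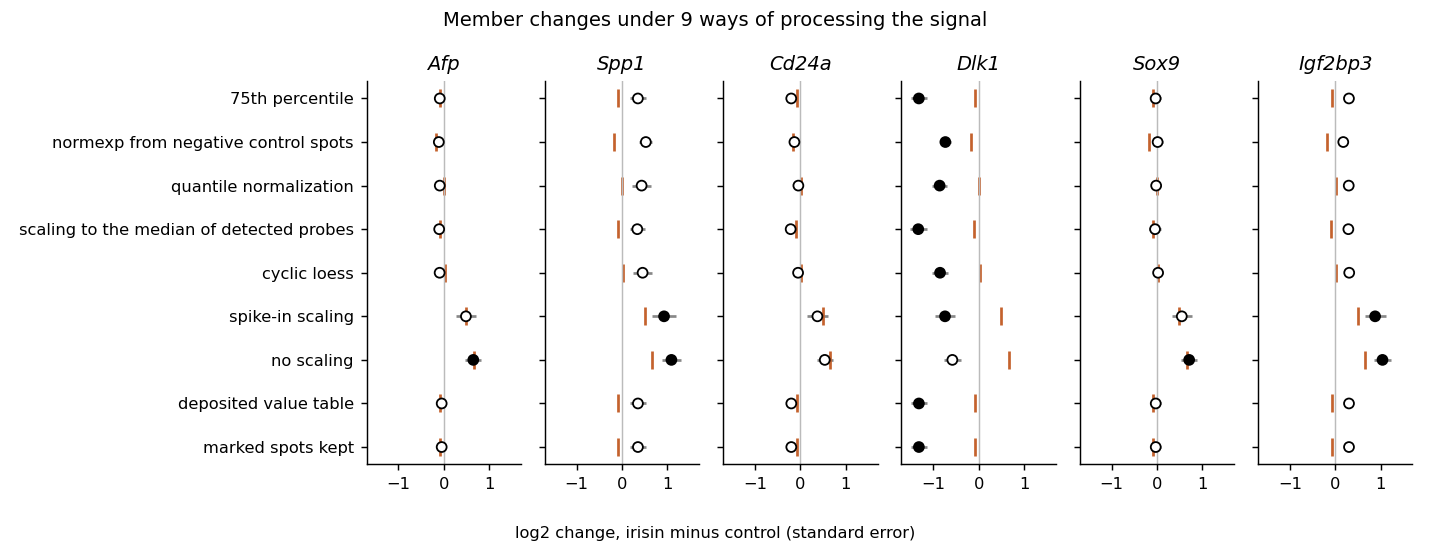
Log2 change, irisin minus control, of the 6 detected genes (circles, bars are the standard error, filled where called at 1.5-fold and adjusted p under 0.05) under 9 ways of processing the signal, with the median change of all tested probes as an orange tick. The ticks move between -0.17 and 0.66, and Spp1 and Igf2bp3 stay to the right of them and Dlk1 to the left. Where a setting only rescales whole arrays, a gene and its tick move together by construction.

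The genes that act around these markers were taken as lists, 79 genes in all. Of these, 59 were tested, 1 was called higher and 5 lower, and their median change was -0.055, beside -0.064 over all 14311 tested genes, of which 76 were called higher and 1460 lower. Each gene is given by its brightest tested probe.

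Both repressors that switch off Afp after birth were detected. Zhx2 changed by 0.40 (adjusted p = 0.0594 in limma) and Zbtb20 by -0.029 (adjusted p = 0.949). None of the 6 genes around Lin28 and the Igf2bp proteins was called changed. Beside Igf2bp3, the change was 0.095 for Igf2bp1 and -0.24 for Igf2bp2 (-0.23 on its other probe), both with an adjusted p over the threshold in limma, 0.468 and 0.0687. Lin28a, an RNA-binding protein that blocks let-7 maturation, was at -0.58 (adjusted p = 0.00138), just under 1.5-fold, and Lin28b at 0.065 (adjusted p = 0.884). Of 11 imprinted growth genes, which include Igf2 network members such as Plagl1 and Cdkn1c, 10 were on the array and 4 were tested, with changes from -0.19 to -0.044 on their brightest probes and none called. Plagl1, a zinc finger factor, had 4 tested probes that disagreed. Its brightest was at -0.15, others were at 0.29 and 0.17, and a dimmer one was called lower at -1.02 (adjusted p = 0.00010 in limma), a call lost under spike-in scaling (-0.45) and with no scaling (-0.29). That dimmer probe lay in a decile of brightness where 34.3% of the probes were called lower.

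Among 12 regulators of the hepatoblast, 11 were tested. Sall4, a zinc finger factor of hepatoblasts and embryonic stem cells, was lower by 0.71, from -1.89 ± 0.089 to -2.59 ± 0.17 (SD, n = 4; adjusted p = 0.000555 in limma), in a decile of brightness where 3.78% of the probes were called lower. The call was lost under spike-in scaling (-0.13) and the direction turned with no scaling (0.033), and neither of its other 2 probes was detected. The other 10, among them Foxa1, Foxa2, Gata4, Gata6, Hhex and Prox1, were not called, with changes from -0.40 to 0.19. Of 12 surface and keratin markers of bile duct and progenitor cells, 8 were tested, Krt19 and Krt7 among them, and none was called, with changes from -0.23 to 0.095.

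The Notch and Hippo pathways act in the choice of hepatoblasts between the hepatocyte and bile duct fates, and all 8 genes listed for them were tested. Hes1, a transcriptional target of Notch, was lower, from 1.27 ± 0.20 to 0.47 ± 0.21 (change -0.81, adjusted p = 0.00113 in limma). It is a bright probe, in a decile of brightness where 0.706% were called lower, and the call was lost under spike-in scaling (-0.23) and with no scaling (-0.069). Notch1, a receptor, was called lower on one probe (-0.60, adjusted p = 0.00350) but not on another of its probes (-0.12, adjusted p = 0.434), it lay in a dim decile where 34.3% were called lower, and the call was lost under quantile normalization (-0.23), cyclic loess (-0.19) and spike-in scaling (-0.020), while with no scaling the direction turned (0.14). The other receptor Notch2 (-0.019), the ligand Jag1 (0.12) and the target Hey1 (0.018) were not called. Of the Hippo targets, Ccn1 was at -0.097 (adjusted p = 0.466 in limma) and Ccn2 at -0.38 (adjusted p = 0.00934), under the minimum change.

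On the receiving side of Igf2, all 7 receptors and binding proteins were tested. Insr, the insulin receptor, which Igf2 also binds, was higher by 0.76 on its brightest probe (adjusted p = 0.000638 in limma) and by 0.64 on a second (adjusted p = 0.000893), while the third was at 0.010 (adjusted p = 0.957). With the background set from the negative control spots these probes were at 0.42 and 0.26, neither called. Igf1r was at -0.032 and the clearance receptor Igf2r at 0.14, neither called. Igfbp3 was at 0.53 (adjusted p = 0.00182), under 1.5-fold. Of 6 integrin subunits that bind osteopontin, 4 were tested and none called, with the highest change for Itgav, 0.47 on its brightest probe (adjusted p = 0.0135) and 0.11 on the other (adjusted p = 0.449).

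The mature side of the lineage was represented by 15 adult hepatocyte enzymes, of which 9 were tested and 4 had no probe well above background on any array. Tat, which breaks down tyrosine, was lower by 0.77 (adjusted p = 0.000405 in limma), and G6pc, the last enzyme of gluconeogenesis, by 0.73 (adjusted p = 0.00953). Under quantile normalization Tat was at -0.54 and G6pc at -0.27, under cyclic loess at -0.51 and -0.26, under spike-in scaling at -0.19 and -0.15, and with no scaling at -0.032 and 0.010, with neither called in any of these. G6pc was also not called by the methods' test (adjusted p = 0.0550). Tat and G6pc lay in deciles of brightness where 19.6% and 45.1% of the probes were called lower. The other 7 were between -0.39 and 0.33.

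**Figure D4:**
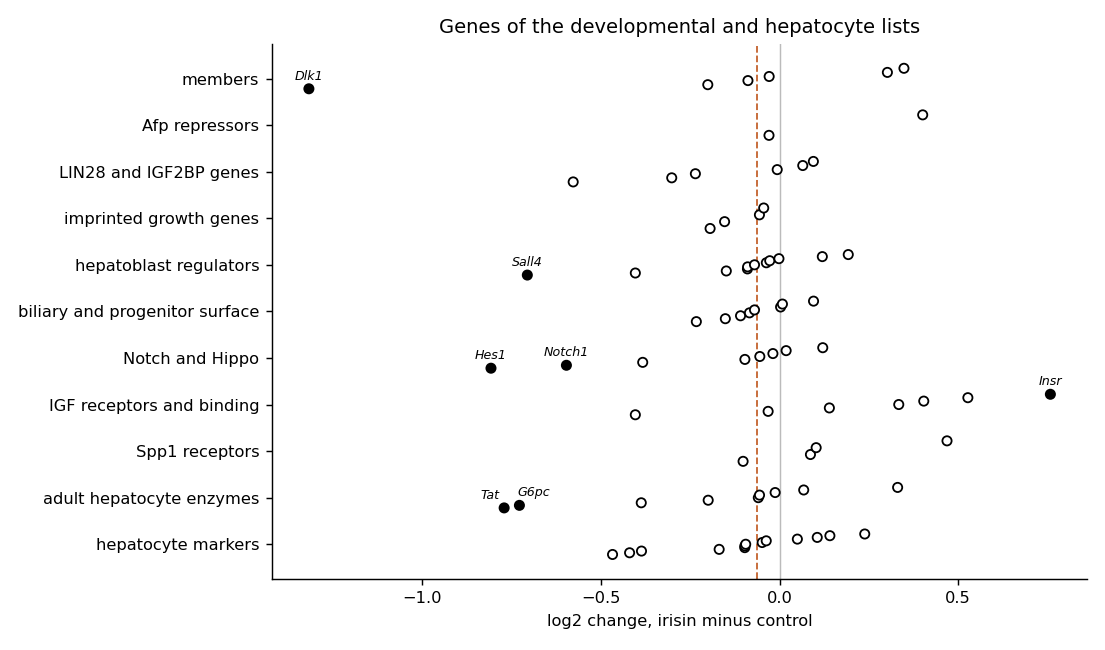
Log2 change, irisin minus control, of the tested genes of each list (circles, 1 per gene by its brightest tested probe, filled and named where called), with 0 as a gray line and the median of all tested genes, -0.064, as a dashed line. Most genes lie near the dashed line, and the called ones are Dlk1, Sall4, Hes1, Notch1, Tat and G6pc below it and Insr above it.

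Markers of other cell types were also summed. Summed over the 6 endothelial markers, the signal relative to the 75th percentile was 0.703 to 0.790 in the control samples and 0.414 to 0.585 in the irisin samples, with Pecam1 called lower (-0.61, adjusted p = 0.00214 in limma, but -0.32 under quantile normalization, -0.28 under cyclic loess, -0.034 under spike-in scaling and 0.13 with no scaling, not called in any of these) and Tek and Lyve1 among the 3 not well above background on any array. Most of the endothelial sum was Kdr, whose mean log2 level was -0.51 in control and -1.07 in irisin. Its change was -0.56 (adjusted p = 0.00441 in limma), under 1.5-fold, and its other probe was not well above background on any array. Pecam1 was far dimmer, at -4.46 and -5.07, in a decile of brightness where 34.3% of the probes were called lower. For 8 macrophage and leukocyte markers the sums were 13.0 to 15.1 and 11.6 to 13.4, and for 5 erythroid markers 0.0695 to 0.0760 and 0.0518 to 0.0623, with none called in either list on the brightest probe of each gene. Most of the macrophage and leukocyte sum was Cd14, which changed by -0.12 (adjusted p = 0.392 in limma). Of the macrophage markers Csf1r was at -0.49 on its brightest probe (adjusted p = 0.00139 in limma), under 1.5-fold, and called lower on another (-0.74, adjusted p = 0.000179), a call lost with no scaling (-0.0055), spike-in scaling (-0.17), cyclic loess (-0.42) and quantile normalization (-0.45). The called Csf1r probe lay in a decile of brightness where 19.6% of the probes were called lower. For the fibroblast and stellate markers the sums were 0.0441 to 0.0541 and 0.0408 to 0.0468. Their part in the changes of Dlk1 and the other members was not tested.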

How the data were processed

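Gene expression was measured in 8 AML12 samples, 4 control and 4 irisin, grouped by their deposited labels. Cy3-labeled cRNA had been hybridized to one-color Agilent arrays, and Feature Extraction 12.0.3.1 had subtracted background and corrected spatial trends. The authors deposited signal intensity on a linear scale, not normalized between arrays, per spot and as a value table, which equals the mean spot signal of each probe within 0.000500%.

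Here outlier spots were dropped, each probe's remaining spots were averaged, and log2 was taken relative to each array's 75th percentile. Accessions of 72.7% of the probes matched a gene symbol in the RefSeq table of GRCm38.p6 (the files use mm9, so none of their coordinates is printed). limma 3.58.1 (lmFit, eBayes, R 4.3.3) was run on all 24092 tested probes with Benjamini-Hochberg adjustment. A probe was called at 1.5-fold and an adjusted p under 0.05. For single values a two-sided exact permutation test used all 70 ways to assign 4 of the 8 arrays to irisin. On arrays simulated with each probe's mean and spread, the fit recovered 87 of 100 probes changed by 1 log2 unit among 24022. The probes were drawn independently, with no slide effect and no shift of dim probes, so recovery under those was not measured. The number of arrays limits the precision.

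The members and lists were chosen with earlier results of these data known. Named genes are all members, every called gene of the lists, the 3 genes most like a called member, and others chosen after their values were seen. Alternatives were normexp, cyclic loess, quantile normalization, the median of detected probes as the scale, spike-in scaling, no scaling, the value table, marked spots kept, other filters, an intensity trend with robust eBayes, the methods' test, a replicate block, the adjusted p alone and each array left out. Files were read and plotted in Python 3.11.15 (pandas 2.3.3, matplotlib 3.10.9).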

Additional observations from a re-analysis of the deposited data

How the results depend on the processing

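Dim probes limit these data: 6 of the 12 member probes could not be tested, and Dlk1 is close to background. Normexp with its default estimate was planned but not used, because it placed the background at -306 and -395 on irisin arrays 2 and 4. Normexp from the negative control spots was chosen in its place after seeing the data. Members called higher numbered 0 in the main setting, 2 under spike-in scaling, 4 with no scaling and 1 by the adjusted p alone. Of all tested probes 0.714%, 32.4%, 61.9% and 2.96% were called higher in these settings. Members called lower numbered 1, but 0 with no scaling and 2 with no filter on dim probes, when Gpc3 was added, and 11.7%, 0.672% and 32.3% of all probes were called lower. Of the wider lists 1 was called higher and 5 lower. Higher and lower calls were 0 and 9 under normexp, 3 and 2 under quantile normalization, 4 and 2 under cyclic loess, 17 and 0 when scaled to the spike-ins and 43 and 0 when unscaled. The shares of all tested probes called higher and lower in these 5 settings were 0.228% and 15.9%, 2.78% and 4.24%, 2.90% and 3.84%, 32.4% and 1.5%, and 61.9% and 0.672%. Without a filter 11 were called lower, and by the adjusted p alone 3 were called higher. Under spike-in scaling and no scaling the changes were 0.49 and 0.65 for Afp, 0.92 and 1.09 for Spp1, 0.38 and 0.54 for Cd24a, 0.88 and 1.04 for Igf2bp3 and 0.55 and 0.71 for Sox9. Dlk1 was at -0.58 with no scaling, and Sox9 at 0.015 under normexp and 0.025 under cyclic loess. Sall4, Notch1 and G6pc turned to 0.033, 0.14 and 0.010 with no scaling. Apart from arrays left out, the other alternatives changed neither the direction of a member nor whether it was called at 1.5-fold and the adjusted p together. The cause of these shifts was not tested.

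With single arrays left out, the changes ranged from -0.13 to -0.030 for Afp, 0.23 to 0.54 for Spp1, -1.43 to -1.17 for Dlk1, -0.25 to -0.16 for Cd24a, 0.25 to 0.34 for Igf2bp3 and -0.12 to 0.066 for Sox9. The members called lower stayed at 1, those called higher at 0, and the wider lists had 1 higher and 4 to 5 lower. Notch1 was not called without control replicates 2 or 4 or irisin replicates 1 or 3.

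The replicate numbers were not taken as pairing the samples, since same-numbered arrays deviated together with correlations of 0.11, -0.35, -0.13 and 0.17, and only 2 of the 4 numbers correlated best with their own. With the replicate block, 173 probes were called higher and 2831 lower, against 172 and 2815, and the adjusted p in limma was 0.0666 for Igf2bp3 and 0.000780 for Dlk1.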

Other observations

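Igf2os, the antisense transcript at the Igf2 locus, was chosen after its values were seen. Its probe was well above background on 4 control and 3 irisin arrays. Relative to the 75th percentile it lay at -6.16 ± 0.34 (SD, n = 4) in the control group and -7.10 ± 0.37 in the irisin group, a change of -0.94 with an adjusted p of 0.00614 in limma. It lies in the dimmest decile of the tested probes, where 45.1% were called lower. Under quantile normalization the change was -0.34 with an adjusted p of 0.255.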
